A study of Mus musculus with 3 samples.

Results

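The survival and death genes of the Bcl2 family were examined for the histone mark H3K36me3 (histone H3 trimethylated at lysine 36) in regulatory T cells (Treg cells) of the mouse spleen and large intestine (LI). The 9 members were Bcl2, Bcl2l1 and Mcl1, which keep cells alive, Bax and Bak1, which carry out death, and Bcl2l11, Bbc3, Pmaip1 and Bid, which trigger it. They were taken by name, and a peak of the mark counted as theirs when its midpoint lay in the gene body. All 9 members had at least 1 peak and enough signal to be compared, among 21938 annotated protein-coding genes of which 10037 had a peak and 9456 were compared. Together the members held 106 of 120910 peaks.

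Chromatin immunoprecipitation sequencing (ChIP-seq) for H3K36me3 was done on Treg cells of C57BL/6 mice at steady state, sorted as CD3+CD4+ cells positive for the Foxp3-YFP reporter, the genotype that the labels give for both tissues. The study describes the mice as adults carrying a Cre-YFP fusion at Foxp3, the gene that defines Treg cells, and pooled the cells of 7 male and 7 female mice. There was 1 library of spleen and 1 of LI, so differences between animals cannot be seen and no difference below has a replicate check. The remaining library, an input made from splenic chromatin, was not analysed here. The spleen library had about 29600000 mapped reads and the LI library about 38100000, as inferred from the values, and their median peak had 10.4 and 10.5 RPKM. The unit is mean read coverage in a peak, scaled by the authors to depth as RPKM.

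Cell death of the Bcl2 family type is decided at the mitochondrion. Survival proteins bind and hold back Bax and Bak1, which otherwise open the outer membrane, and the BH3-only proteins (Bcl2l11, Bbc3, Pmaip1 and Bid) tip this balance towards death when growth factors are withdrawn, DNA is damaged or death receptors are engaged. Treg cells turn over quickly, and Mcl1 and Bcl2l11 are known to set how many survive. H3K36me3 is laid down by the enzyme Setd2, which travels with elongating RNA polymerase, so the mark lies over the bodies of transcribed genes.

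Bcl2 was the one member with a large difference between the tissues: its mark was about 3-fold higher in spleen. Bcl2l11 was modestly higher in spleen and Bcl2l1 modestly higher in LI, and the other 6 members differed by no more than counting error allows. Ratios are given as log2 of LI over spleen after each library was scaled to its total over all peaks, so negative values mean more mark in spleen. Brackets hold approximate 95% intervals that cover counting error only, with each read taken to cover 200 bp. With 75 bp they are narrower, and those of Mcl1 (-0.28 to -0.04), Bak1 (0.04 to 0.28) and Pmaip1 (0.07 to 0.52) then exclude 0. Across all protein-coding genes compared, the median log2 ratio was 0.0045 and the middle 50% lay between -0.20 and 0.23, and the 9 members had a median of -0.06. Over 2-fold more mark in spleen was found for 1 of 9 members (Bcl2) and for 1.81% of all coding genes compared. Over 2-fold more mark in LI was found for 0 of 9 members and for 3.21% of all coding genes. The counting interval lay below 0 for 2 members (Bcl2 and Bcl2l11) and for 15.9% of coding genes, and above 0 for 1 member (Bcl2l1) and for 18.5% of coding genes. Those shares show that an interval on one side of 0 was common in these libraries. In bulk ChIP-seq, fewer cells carrying the mark and less mark per cell cannot be told apart.

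**Figure D1:**
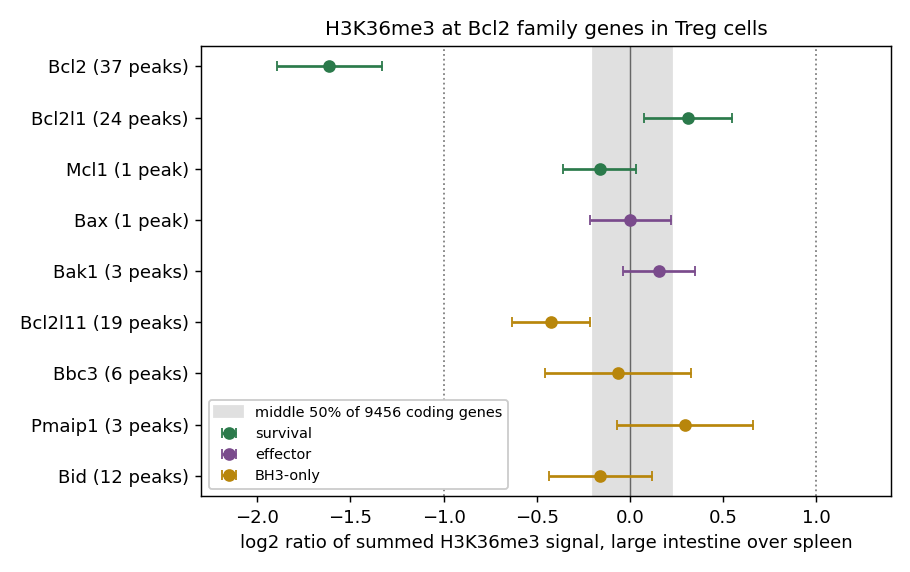
Log2 ratio of the summed H3K36me3 signal of each member, LI over spleen (x axis), by gene (y axis), coloured by role. Points are ratios of 1 library over 1 library, bars are approximate 95% counting intervals, the grey band is the middle 50% of 9456 coding genes (-0.20 to 0.23) and dotted lines mark 2-fold. Bcl2 lies at -1.61, past the 2-fold line, Bcl2l11 at -0.42 and Bcl2l1 at 0.31.

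Bcl2, the founding survival gene of the family, lies on the minus strand of chromosome 1 (ENSMUSG00000057329.7, mm10, 106538178 to 106714274) and spans 176097 bp, most of it 1 long intron. Of its 37 peaks, 33 had their midpoint in an intron and 4 in a non-coding exon or untranslated region. Most were short, with a median length of 264 bp, and together they covered 6.86% of the gene body. Of its peaks, 3 are shown as 200-bp windows at their centres, because they carry the strongest spleen signal, the lowest ratio and the only ratio above 0. Sequences are of the GRCm38 genome (the assembly of mm10), 5′ to 3′ on the strand of the gene, with CpG dinucleotides in capitals, since the ratio of the libraries followed base composition across all peaks.
Bcl2, strongest peak, chr1:106696499-106696698, minus strand: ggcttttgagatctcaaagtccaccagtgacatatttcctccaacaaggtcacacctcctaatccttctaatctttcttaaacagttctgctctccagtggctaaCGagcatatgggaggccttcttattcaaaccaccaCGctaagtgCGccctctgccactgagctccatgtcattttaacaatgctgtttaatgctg
Bcl2, lowest ratio, chr1:106659869-106660068, minus strand: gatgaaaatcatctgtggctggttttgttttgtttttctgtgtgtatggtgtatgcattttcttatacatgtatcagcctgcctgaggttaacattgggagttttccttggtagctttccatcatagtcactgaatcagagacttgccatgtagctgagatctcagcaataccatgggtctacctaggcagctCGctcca
Bcl2, highest ratio, chr1:106701523-106701722, minus strand: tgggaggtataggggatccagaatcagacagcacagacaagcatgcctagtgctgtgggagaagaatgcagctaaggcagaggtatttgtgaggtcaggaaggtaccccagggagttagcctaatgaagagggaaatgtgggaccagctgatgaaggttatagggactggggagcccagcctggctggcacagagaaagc

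The strongest peak of Bcl2, 17.7 kb from the gene start, had 17.9 RPKM in spleen and 5.18 RPKM in LI. The peak with the lowest ratio, at 54.3 kb, had 9.83 RPKM in spleen and 0.103 RPKM in LI. The one peak with more signal in LI, at 12.7 kb, had 9.94 RPKM in spleen and 12.2 RPKM in LI, a log2 ratio of 0.24. The 3 windows held 3, 1 and 0 CpG dinucleotides at a GC content of 45.5%, 43% and 53.5%. The window of the strongest peak was 40% soft-masked repeat, and the other windows 22.5% and 6%.

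Summed over its 37 peaks, Bcl2 had 406 RPKM in spleen and 137 RPKM in LI. The log2 ratio was -1.61 (-1.89 to -1.33), or 3.06-fold more in spleen, and 0.296% of coding genes had a lower ratio. Across the peaks, spleen values ran from 6.32 to 17.9 RPKM with a median of 10.6, and LI values from 0.103 to 12.2 RPKM with a median of 3.99. The ranges overlap, but within peaks the direction was nearly uniform. Spleen was higher in 36 of 37 peaks, against 51.1% of all peaks in the series. It was over 2-fold higher in 29 of 37, against 9.65% of all peaks, and 0 of 37 were over 2-fold higher in LI, against 9%. Among the 988 coding genes with at least 30 peaks, 8 (0.81%, Bcl2 included) had as large a share of peaks higher in spleen. Peaks of 1 gene come from the same libraries and are not replicates. A peak was listed when it was called in either tissue, and the tissue that called each Bcl2 peak was not known here. Peaks called only in spleen would raise these counts and lower the ratios of the gene and of its parts. How far they did so was not tested.

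The peaks in each part of Bcl2 summed to more mark in spleen, although peaks covered only 6.86% of its body. With the gene body divided into 3 equal parts, the part nearest the start had 172 RPKM in spleen and 58.6 RPKM in LI over 15 peaks (log2 ratio -1.59). The middle part had 64.8 and 21.1 RPKM over 6 peaks (-1.64). The part at the gene end had 169 and 57.0 RPKM over 16 peaks (-1.61), all higher in spleen. The single peak of at least 1 kb, 1143 bp long and 172 kb from the start, had 16.2 RPKM in spleen and 5.92 RPKM in LI (-1.42). Its peak measured over the most bases thus also had more signal in spleen.

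**Figure D2:**
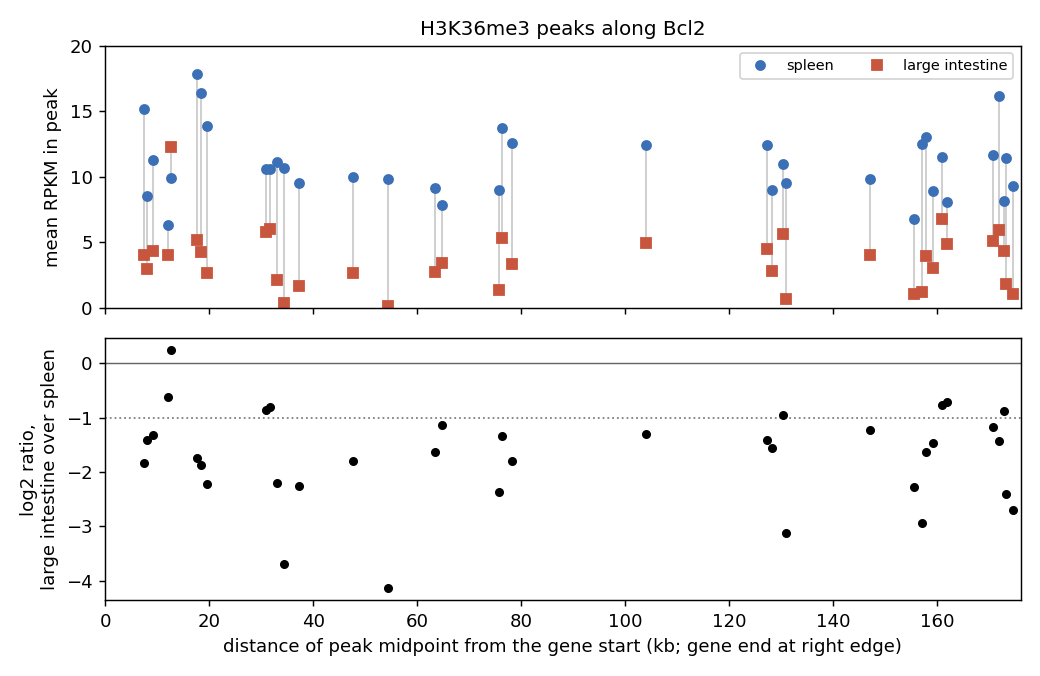
Mean RPKM of each of the 37 Bcl2 peaks (top, spleen circles and LI squares joined by a line) and log2 ratio of LI over spleen (bottom), by distance of the peak midpoint from the gene start in kb. Spleen lies above LI in 36 of 37 peaks, and the exception at 12.7 kb has 9.94 RPKM in spleen and 12.2 RPKM in LI.

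Part of the Bcl2 signal cannot be assigned to Bcl2 alone. Towards the gene end, 9 peaks also lie in D630008O14Rik, an antisense gene on the opposite strand, and these 9 had 98.6 RPKM in spleen and 36.1 RPKM in LI (-1.48). Without them the 28 remaining Bcl2 peaks gave a log2 ratio of -1.65 (-1.99 to -1.31). The neighbouring coding gene upstream, Kdsr, an enzyme of sphingolipid synthesis 6.18 kb away, had 297 RPKM in spleen and 294 RPKM in LI (-0.06, -0.24 to 0.12). The downstream neighbour Phlpp1, a phosphatase gene 144 kb away, had 186 and 158 RPKM (-0.28, -0.58 to 0.02). Neighbours were looked up after the values of Bcl2 were known. When peaks were instead given to whichever gene had the closest transcript start, 14 of the 37 peaks stayed with Bcl2 and 10 peaks of Kdsr joined them, and the log2 ratio was -0.66 (-0.93 to -0.40), no longer past 2-fold. Bcl2 is on the list of genes that the study names as its splenic Treg signature, which rests on expression in other samples.

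Bcl2l1, which encodes the survival protein Bcl-xL, lies on the minus strand of chromosome 2 (ENSMUSG00000007659.18, 152780668 to 152831728) and had 24 peaks, 23 of them intronic. Its peaks summed to 189 RPKM in spleen against 242 RPKM in LI, a log2 ratio of 0.31 (0.07 to 0.55), higher than that of 80.8% of coding genes. LI was higher in 16 of 24 peaks, 7 of them over 2-fold, and spleen in 8, of which 2 were over 2-fold. Over all 120910 peaks, 59128 were higher in LI. Of all peaks, 9% were over 2-fold higher in LI and 9.65% over 2-fold higher in spleen. Single peaks of Bcl2l1 spread widely, from -1.81 to 1.90. Its 3 peaks of at least 1 kb, however, were all higher in LI and together gave 0.49 (0.23 to 0.74). Over all 28145 peaks of that length, 14394 were higher in LI. The longest of the 3 Bcl2l1 peaks covered the gene end over 3066 bp, with 11.2 RPKM in spleen and 18.3 RPKM in LI (0.64). By equal parts of the body from start to end the ratio was 0.53, 0.17 and 0.16. After correction for GC content it was 0.21 (-0.03 to 0.45), an interval that includes 0, so the difference of Bcl2l1 was not larger than counting error under that correction. Bcl2l1 is on the study's ST2+ Treg signature.

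Mcl1, the short-lived survival protein that Treg cells are known to need, is a short gene on the plus strand of chromosome 3 (ENSMUSG00000038612.16, 95658788 to 95663176). It had 1 peak of 6489 bp that covered 93.3% of the gene body. The peak ran on to 95665572, past the gene end, so its values also cover bases outside Mcl1. That peak had 18.9 and 17.4 RPKM in spleen and LI, respectively. The log2 ratio was -0.16 (-0.36 to 0.03), so no difference larger than counting error was seen. The sign rests on which peaks are counted: with every peak that touches the gene, which adds 1, the ratio was 0.21 (-0.21 to 0.63), and with peaks up to 5 kb past the gene end it was -0.30 (-0.55 to -0.04).

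The effector genes, whose products form the pore in the mitochondrial membrane, did not differ between the tissues beyond counting error. Bax, on the minus strand of chromosome 7 (ENSMUSG00000003873.11, 45461697 to 45466898), had 1 peak of 5116 bp over 96.1% of its body, with 18.3 RPKM in spleen and 18.9 RPKM in LI. Its log2 ratio was 0.0037 (-0.22 to 0.22), near the median of coding genes. Bak1, on the minus strand of chromosome 17 (ENSMUSG00000057789.14, 27019810 to 27029009), had 3 peaks with 10.02, 29.7 and 19.6 RPKM in spleen and 13.8, 33.6 and 20.998 RPKM in LI, from gene end to start. All 3 were higher in LI, with ratios of 0.40, 0.13 and 0.05. The sum was 59.3 RPKM in spleen and 68.4 RPKM in LI, a ratio of 0.16 (-0.04 to 0.35). The direction of Bak1 depended on the processing, since it turned to -0.12 (-0.32 to 0.09) after correction for GC content. All of its peaks also lie in Ggnbp1, a gene on the opposite strand with 2 annotation entries, so the signal cannot be divided between them, and the Bax peak overlaps Gm45808 by 714 bp.

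Bcl2l11 encodes Bim, the BH3-only protein that removes lymphocytes deprived of survival cytokines. It lies on the plus strand of chromosome 2 (ENSMUSG00000027381.16, 128126038 to 128162547) and had 19 peaks: 14 in introns, 2 in coding exons and 3 in non-coding exons or untranslated regions. Windows at the centre of the longest intronic peak of Bcl2l11 and of Bcl2l1 are shown as the intervals in which those genes were measured over the most intronic bases, in opposite directions.
Bcl2l11, longest intronic peak, chr2:128150541-128150740, plus strand: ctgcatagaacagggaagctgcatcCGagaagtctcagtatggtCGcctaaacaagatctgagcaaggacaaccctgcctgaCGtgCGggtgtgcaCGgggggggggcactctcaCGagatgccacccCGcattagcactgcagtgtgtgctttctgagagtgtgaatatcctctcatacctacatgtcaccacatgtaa
Bcl2l1, longest intronic peak, chr2:152820791-152820990, minus strand: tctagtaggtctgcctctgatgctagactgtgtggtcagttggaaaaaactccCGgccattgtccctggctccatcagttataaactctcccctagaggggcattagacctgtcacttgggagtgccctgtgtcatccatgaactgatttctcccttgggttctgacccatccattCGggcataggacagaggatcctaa

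The Bcl2l11 peak, 2022 bp long, had 11.9 RPKM in spleen and 8.71 RPKM in LI (-0.47), and its window held 7 CpG dinucleotides. The Bcl2l1 peak, 2526 bp long, had 11.9 RPKM in spleen and 15.7 RPKM in LI (0.34), and its window held 2. Both peaks had about the same level in spleen and parted in LI.

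Summed over 19 peaks, Bcl2l11 had 241 RPKM in spleen and 185 RPKM in LI. The log2 ratio was -0.42 (-0.64 to -0.21), or 1.34-fold more in spleen, with 9.79% of coding genes lower. Spleen was higher in 16 of 19 peaks (over 2-fold in 3) and in all 4 peaks of at least 1 kb. Over the series it was higher in 51.1% of all peaks (over 2-fold in 9.65%) and in 13751 of the 28145 of at least 1 kb. The peak ratios of Bcl2l11 ran from -1.50 to 0.56. The middle part of the body had the largest difference (-0.66), and the parts at the start and the end had -0.31 and -0.26. The strongest peak, 22.7 kb from the start, went the other way, with 18.4 RPKM in spleen and 19.99 RPKM in LI, a ratio of 0.07 (-0.52 to 0.66). After correction for GC content the ratio of the gene was -0.56 (-0.78 to -0.35).

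The other BH3-only genes had intervals that include 0. Bbc3, which encodes the p53 target Puma, lies on the plus strand of chromosome 7 (ENSMUSG00000002083.13, 16308393 to 16318205). Its 6 peaks summed to 66.9 RPKM in spleen and 66.1 RPKM in LI, a ratio of -0.06 (-0.45 to 0.33), with 3 peaks higher in each tissue and peak ratios from -1.31 to 1.11. Its longest peak, 1904 bp at the gene end, had 20.4 and 22.4 RPKM. Single peaks of Bbc3 thus differed both ways while its sum hardly differed. Pmaip1, which encodes Noxa, a partner of Mcl1, lies on the plus strand of chromosome 18 (ENSMUSG00000024521.8, 66458533 to 66465565). Its 3 peaks had 11.6, 8.85 and 7.66 RPKM in spleen and 15.3, 9.67 and 10.7 RPKM in LI, from start to end. All 3 were higher in LI, and the sum of 28.1 against 35.7 RPKM gave 0.30 (-0.07 to 0.66). After correction for GC content the ratio of Pmaip1 was 0.41 (0.04 to 0.77), an interval above 0. Pmaip1 is on the study's colonic Treg signature.

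Bid, which links death receptors to the mitochondrion, lies on the minus strand of chromosome 6 (ENSMUSG00000004446.12, 120891930 to 120916853) and had 12 peaks, none in the part of the body nearest the start. They summed to 133 RPKM in spleen and 123 RPKM in LI, a ratio of -0.16 (-0.43 to 0.12). Of the 12, 8 were higher in spleen and 4 in LI, against 51.1% of all peaks higher in spleen. Peak ratios ran from -1.56 to 1.53. Its longest peak, 6070 bp over the gene end, had 20 RPKM in spleen and 18.8 RPKM in LI (-0.13), and 2450 bp of it lie in Bcl2l13, another gene of the family on the opposite strand.

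**Figure D3:**
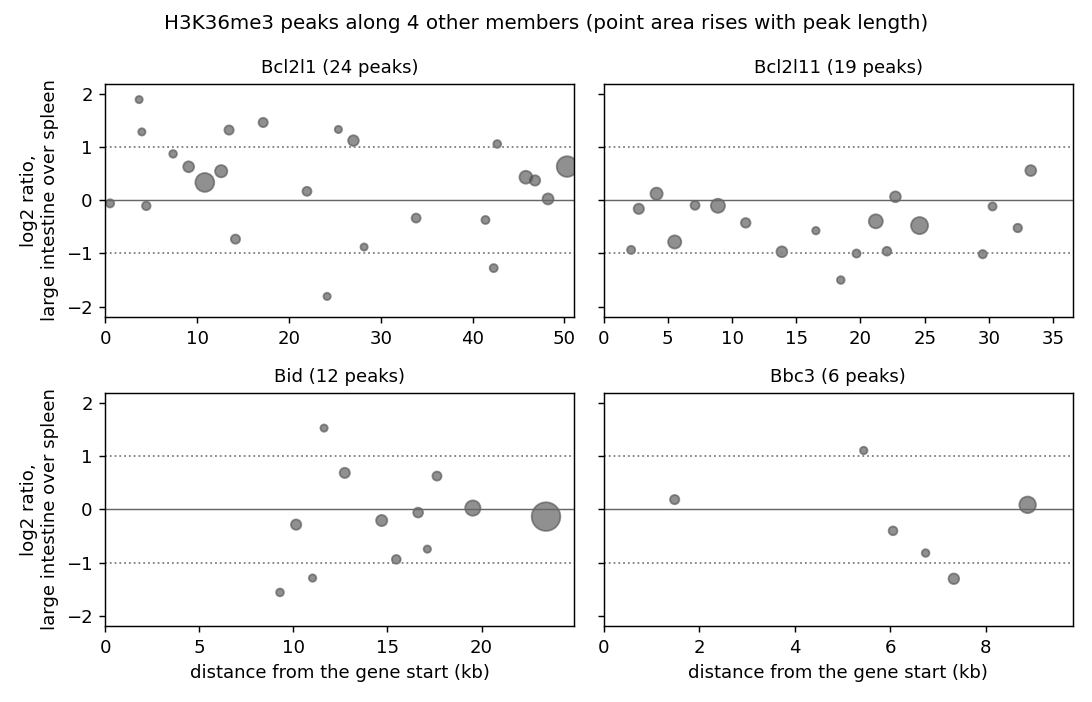
Log2 ratio of LI over spleen of each peak (y axis) by distance from the gene start in kb (x axis) in Bcl2l1, Bcl2l11, Bid and Bbc3. Point area rises with peak length and dotted lines mark 2-fold: the large points, the peaks of at least 1 kb, lie above 0 in Bcl2l1 (3 of 3) and below 0 in Bcl2l11 (4 of 4).

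Over all 106 peaks of the members, 72 were higher in spleen and 34 in LI, but Bcl2 made that lean. Without Bcl2, 36 of 69 peaks were higher in spleen and 33 in LI, near the 51.1% of all peaks. The SD of the log2 ratio was 1.14 over the members' peaks, 0.81 without Bcl2 and 0.80 over all peaks. Among the 18 member peaks of at least 1 kb, 7 were higher in spleen and 11 in LI. Over all 28145 peaks of that length, 13751 were higher in spleen and 14394 in LI. A peak entered the table when it was called in either tissue, so a short peak can be listed with little signal in the other.

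Levels can be compared between genes only per length, as the mean RPKM over the bases that lie in peaks. On that scale Bak1 was highest in both tissues (21.2 RPKM in spleen and 23.8 RPKM in LI), and Bax (18.3 and 18.9 RPKM) and Mcl1 (18.9 and 17.4 RPKM) came next. Bid (15.9 and 15.2 RPKM) and Bbc3 (15.2 and 15.1 RPKM) followed. In spleen the order then ran Bcl2l11 (12.97 RPKM), Bcl2 (11.4 RPKM), Pmaip1 (9.80 RPKM) and Bcl2l1 (9.11 RPKM), and the counting intervals of all neighbours in the order overlapped. In LI it ran Bcl2l1 (12.8 RPKM), Pmaip1 (12.4 RPKM), Bcl2l11 (10.5 RPKM) and Bcl2 (4.01 RPKM). Only the steps from Bak1 to Bax and from Bcl2l11 to Bcl2 had intervals apart there. Bcl2 thus stood seventh in spleen and last in LI, where its interval was 3.47 to 4.63 RPKM. These means cover only the bases in peaks, which were 6.86% of the body of Bcl2 and 93.3% of that of Mcl1. Where a peak ran past the gene end, as in Mcl1, the mean also covers those bases.

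**Figure D4:**
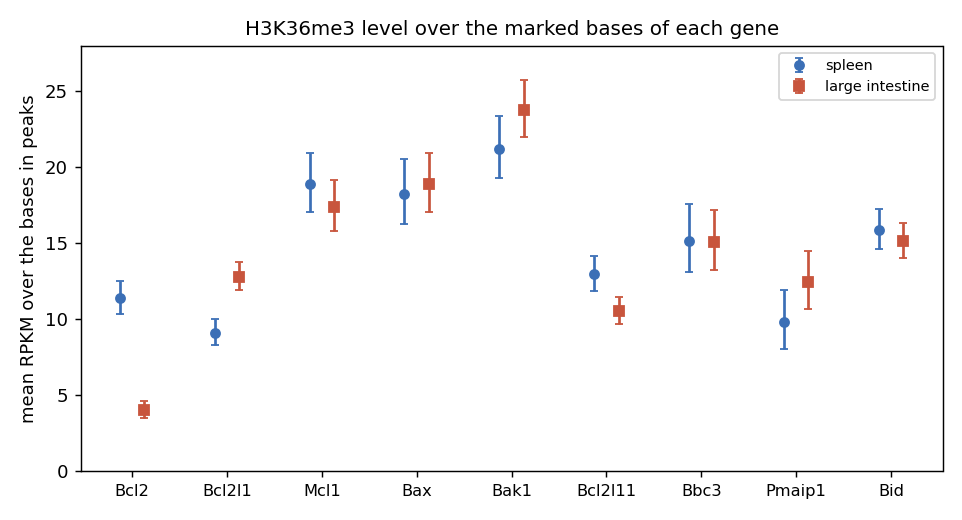
Mean RPKM over the bases in peaks (y axis) of each member (x axis) in spleen (circles) and LI (squares), 1 library each, with approximate 95% counting intervals as bars. Bcl2 has 11.4 RPKM in spleen and 4.01 RPKM in LI, while Bax has 18.3 and 18.9 RPKM.

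Other genes of the cell death pathway were read in 4 lists of 53 genes, of which 44 had a peak and 40 had at least 20 RPKM over both libraries. Of these 40, 17 were higher in LI and 23 in spleen, with a median log2 ratio of -0.09. Over 2-fold, 1 was higher in LI and 1 in spleen, and counting intervals lay above 0 in 9 and below 0 in 8. Over all 9456 coding genes compared, 4792 were higher in LI and 4664 in spleen. The counts over 2-fold and by interval can be set beside the shares of all coding genes above. No test of the lists was made.

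Among the other genes of the Bcl2 family, 8 of 16 had a peak and 5 were compared, with 3 higher in LI and a median of 0.07. Bik, a BH3-only gene, had 10.8 RPKM in spleen and 34.1 RPKM in LI over 3 peaks (1.57, 0.75 to 2.40). It was the only compared gene of the 4 lists over 2-fold higher in LI. No peak lay in Bcl2a1a, Bcl2a1b, Bcl2a1d, Bcl2l10, Bok, Hrk, Bcl2l14 or Bcl2l15. Of 17 caspases, apoptosome genes and inhibitors, 16 were compared, 8 in each direction, with a median of -0.03. Birc5, the inhibitor survivin, best known from dividing cells, had 22.8 RPKM in spleen and 8.50 RPKM in LI over 2 peaks (-1.42, -2.55 to -0.28), the only gene of the 4 lists over 2-fold higher in spleen. Both calls rest on 3 peaks or fewer and have wide intervals.

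In the death receptor pathway all 9 genes were compared, 3 of them higher in LI and 6 in spleen, with a median of -0.04. At its extremes were Tnfrsf10b, the mouse TRAIL receptor, with 85.0 RPKM in spleen and 154 RPKM in LI (0.81, 0.52 to 1.09), and Fas, the receptor of Fas ligand, with 150 and 95.9 RPKM (-0.69, -0.99 to -0.38). Of 11 regulators of the members, 10 were compared, 3 higher in LI and 7 in spleen, with a median of -0.11, and E2f1 had no peak. Their extremes were Hif1a, a hypoxia factor, at 0.35 (0.12 to 0.58), and Huwe1, a ubiquitin ligase of Mcl1, at -0.37 (-0.50 to -0.24).

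**Figure D5:**
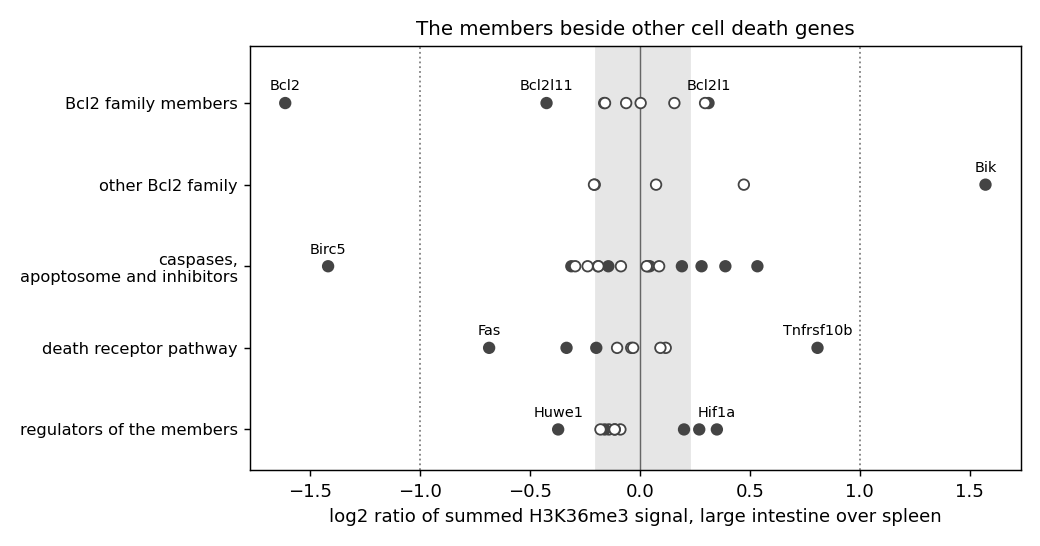
Log2 ratio of LI over spleen (x axis) of the 9 members and of the compared genes of 4 other cell death lists (y axis). Filled points have a counting interval on one side of 0, the grey band is the middle 50% of coding genes and dotted lines mark 2-fold, which Bcl2 (-1.61), Birc5 (-1.42) and Bik (1.57) pass.

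The Treg label was checked against marker genes. Foxp3, Il2ra, Ctla4, Cd3e and Cd4 all had peaks, and by log2 ratio 3 were higher in LI and 2 in spleen. Foxp3 had 133 RPKM in spleen and 156 RPKM in LI (0.19). Ctla4 had 66.1 and 103 RPKM (0.59, 0.31 to 0.88) and Cd4 73.9 and 83.2 RPKM (0.13). Il2ra had 247 and 242 RPKM (-0.08), and Cd3e had 51.8 and 40.1 RPKM (-0.41, -0.80 to -0.03). In sum the 5 genes had 572 RPKM in spleen and 625 RPKM in LI. Such sums rise with the number of peaks, so they can be compared between the tissues but not between marker lists. Of 5 B cell markers 3 had a peak, with 60.2 RPKM in spleen and 53.4 RPKM in LI in sum. Cd79a and Cd79b encode the signalling chains of the B cell receptor. Cd79a had 47.2 RPKM in spleen and 29.8 RPKM in LI (-0.70), and Cd79b had 8.96 and 13.7 RPKM (0.54). Pax5, a B cell transcription factor, had 4.05 and 9.91 RPKM, below the 20 RPKM needed for comparison, and Ms4a1 and Ebf1 had no peak. Of 5 myeloid markers only Csf1r had a peak (14.7 and 16.3 RPKM). Of 6 intestinal epithelium markers, Epcam had 25.3 and 47.2 RPKM and Vil1 4.63 and 12.6 RPKM, a sum of 29.9 RPKM in spleen and 59.8 RPKM in LI, and Krt8, Krt20, Cdh1 and Muc2 had no peak. The part of other cells in the difference of Bcl2 or of other members was not tested.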

How the data were processed

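H3K36me3 was measured in 1 spleen and 1 LI library of sorted Treg cells. Single-end 75-nt reads were aligned by the authors to mm10 with Bowtie2, called peaks with MACS2 against the input at p 0.01, merged the peaks of both tissues with bedtools and averaged RPKM-scaled coverage over each merged peak. FastQC is also named in the submitters' processing notes, and versions are not given in the sources used here. The deposited values are therefore mean RPKM per peak, although the table carries a raw-count label, and they are fractional. Multiplied by peak length, 99.97% of low values in spleen and 99.98% in LI were within 0.05 steps of a whole multiple of 1 step per library (1.69 RPKM in spleen and 1.31 RPKM in LI, the worth of 1 read in a 20-bp bin), from which the depth was inferred. Reads per peak were not recovered, so no count test was run.

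From the deposited values, peaks were given to a gene when their midpoint lay in its GENCODE M21 body, and summed. Coding genes whose libraries together reached 20 RPKM were compared by the log2 ratio, with 0.5 RPKM added as a pseudocount, minus the log2 ratio of the library totals (0.046). It understates the change of low genes. Printed RPKM are as deposited. Intervals took each read to cover 200 bp and reads to be independent. GC correction subtracted the median ratio of 20 bins of peak GC content. No peak passed a chromosome end of GRCm38 (21 chromosomes). The calculation was run on simulated data drawn with the same peaks, depths and 200-bp independent reads, which cannot check those assumptions. Python 3.11.15, numpy 2.4.6, pandas 2.3.3 and matplotlib 3.10.9 were used.

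The named genes were the 9 members, genes sharing their peaks, and in each other list the genes past 2-fold or, with none, those with the highest and lowest ratio. Neighbours were added after values were seen. A further B cell marker, which had been set for the check of the label, is not reported here. The members, lists and rules were chosen with earlier results of these data known.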

Additional observations from a re-analysis of the deposited data

How the results depend on the processing

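Under 17 other settings, 230 values were recomputed. Of these, 221 stayed within the counting error of the reported value or, for counts, within 1.5 times of it, and 8 moved further. The remaining 1, Bcl2l11 by its strongest peak, changed sign although its reported interval excludes 0. Ratios of Mcl1, Bax, Bak1 and Bbc3, whose reported intervals include 0, also changed sign in some settings. The median log2 ratio of the members has no counting interval, and all its values were counted among the 221. It too changed sign in some settings. As reported it was -0.06, with the strongest peak 0.069, and at 200 RPKM or more -0.29 over 4 members. Part of the 221 could not change. The filter and the background left the members as they were, read length altered only intervals, and Mcl1 and Bax had 1 peak. Bcl2 stayed below 0 in all 17 settings, from -1.74 to -0.66, and was past 2-fold in all but 1. With peaks given to the nearest transcript start its ratio was -0.66 and 0 members were over 2-fold higher in spleen. In that setting 14 of its 37 peaks stayed with it and 10 peaks of Kdsr, whose own ratio was -0.06, joined the sum. With the strongest peak alone, Bcl2l11 turned to 0.069, Bcl2l1 was 0.64 and 1 member had an interval below 0. Mcl1 was 0.21 with any overlap, and Bak1 was -0.12 with GC correction. Members with an interval above 0 numbered 2 without further scaling and 3 with reads of 75 bp, and those with an interval below 0 rose from 2 to 3 with reads of 75 bp and with the body plus 5 kb.

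Among all coding genes, 304 were over 2-fold higher in LI and 171 in spleen. These counts were 468 and 307 without the filter, 213 and 123 with a pseudocount of 5, 68 and 37 at 200 RPKM or more, and 108 and 32 with peaks of 1 kb or more. LI made up 64.0% of the calls, and 53.3% (216 and 189 genes) after GC correction. Over all peaks the ratio rose with GC content, from a median of -0.53 in the lowest of 20 bins to 0.35 in the highest. No paired analysis was possible because each tissue had 1 library, and none could be left out. The SD of the log2 ratio was 0.80 over all peaks and 0.39 over peaks of at least 1 kb, and the part of depth in that gap was not tested.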
